A study of Mus musculus with 6 samples.

Results

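The genes described here are 10 Kruppel-like factors, Klf2, Klf3, Klf4, Klf6, Klf7, Klf9, Klf10, Klf11, Klf12 and Klf13, measured in mouse CD4 T cells with and without Dicer, the enzyme that releases mature microRNAs from hairpin precursors. They were found as rows of the deposited table whose platform annotation gives exactly 1 gene symbol and that symbol is a member. All 10 of 10 were found, each on 1 row, among 19935 genes in all. The Dicer KO samples (n = 3) came from animals that were Dicer lox/lox and CD4Cre positive, in which Cre is driven by the Cd4 promoter. The Dicer WT samples (n = 3) came from animals that were also Dicer lox/lox but CD4Cre negative, so both genotypes carry the floxed allele. Resting CD4+ T cells were sorted from lymph node suspensions without treatment, and total RNA was amplified, biotin-labelled and hybridised to MoGene 1.0 ST arrays, 1 colour and 1 array per sample. The series' design text calls the samples biological replicates, and the sources used here name neither strain nor age. Cre driven by the Cd4 promoter acts from the developing thymocyte onward and also in CD8 T cells, so the genotypes differ in the whole T cell compartment and not only in the sorted cells.

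Kruppel-like factors are transcription factors with zinc fingers near the C terminus that bind CACCC elements and GC boxes, and they differ in the N-terminal parts that recruit activators or repressors. In T cells Klf2 is known for keeping resting cells quiescent and for switching on the receptors that let them circulate through lymph nodes. Klf4 restrains proliferation, Klf10 and Klf11 are induced by TGF-beta, and KLF13 is known in human T cells as a late activator of the chemokine gene CCL5. MicroRNAs reach some of these factors in other systems: miR-125a was reported to lower KLF13 in human T cells, and miR-92a to lower KLF2 in human endothelial cells.

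The mature mouse sequences of these microRNAs are shown because such molecules depend on Dicer. They are from RefSeq (GRCm38.p6), 5′ to 3′, with the seed (bases 2 to 8) in capitals; miR-125a-5p and miR-125b-5p share a seed and miR-92a-3p has another.
mmu-miR-125a-5p: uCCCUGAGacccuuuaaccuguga
mmu-miR-125b-5p: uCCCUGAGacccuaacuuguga
mmu-miR-92a-3p: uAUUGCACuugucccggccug
Mature microRNAs were not measured by these arrays, and sites for these seeds in the mouse Klf transcripts were not analysed here. The precursor row of Mir125a had a log2 difference of -0.21 ± 0.14 (SE, limma adjusted p = 0.472) and that of Mir125b-1 -0.10 ± 0.05 (adjusted p = 0.398), and neither passed.

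The deposited log2 values are centred row by row on the median of the 6 arrays, so 0 is the middle of a gene's own arrays and no level can be read from it. A difference is the mean of Dicer KO minus the mean of Dicer WT, with the SE of limma's moderated fit and a p-value adjusted by Benjamini-Hochberg over all 19935 genes; every adjusted p of a single gene is from this fit, with n = 3 per genotype, and a gene passed at an adjusted p under 0.05. Centring makes the middle pair of arrays mirror each other, which is why some values below are equal in size and opposite in sign. Over all genes the median difference was -0.01. The row of Dicer1 had a difference of 0.02 ± 0.09 (adjusted p = 0.949); the sources used here do not say which exons it reads, so it checks nothing about the deletion. Of the CD4 T cell genes, Cd4 was 0.67 ± 0.07 higher in Dicer KO (adjusted p = 0.00328) and Cd44 differed by 0.28 ± 0.14 (adjusted p = 0.304). In bulk RNA such as this, fewer cells of a type and less RNA per cell cannot be told apart.

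Klf13 rose in Dicer KO cells and had the smallest SE of the 10 members, at 1.29-fold. Klf11 rose by less, 1.19-fold, just past the threshold. None of the other 8 passed by limma, and 0 members fell (at an unadjusted p under 0.05, 3 were higher and 0 lower, against 12.1% and 9.4% of all genes); their differences ran from -0.23 for Klf7 to 0.27 for Klf10. Of all genes 8.73% passed, 5.94% higher and 2.79% lower in Dicer KO. The 2 of 10 members lie above that background, but it is not matched to them for signal level, and 10 genes are too few to read this as a result about the family. The median difference of the 10 members was 0.08, and their median absolute difference was 0.173 against 0.0756 over all genes and 0.438 over the genes that passed. Dicer KO and Dicer WT arrays stood fully apart for 3 members, Klf2, Klf11 and Klf13, all higher in Dicer KO. Over all genes 26.2% stood fully apart in either direction and 13.5% higher in Dicer KO. The members' count is near the share for either direction and above the share for higher, again in only 10 genes.

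**Figure D1:**
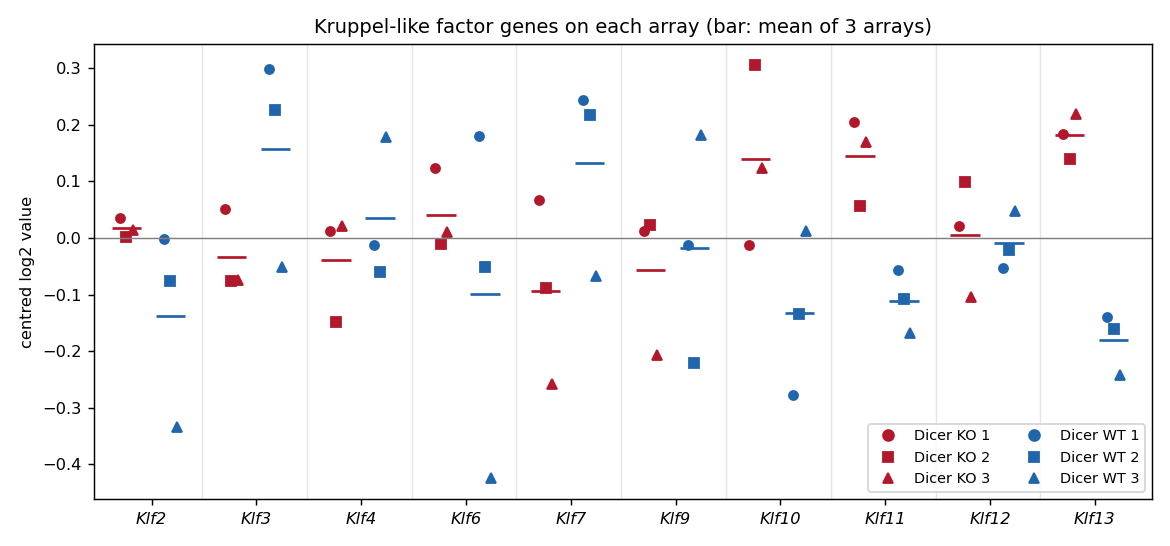
Centred log2 value (y axis) of each of the 10 Kruppel-like factor genes (x axis) on every array, Dicer KO in red left of Dicer WT in blue, with marker shapes for samples 1 to 3 and bars at the means of 3 arrays. The Klf13 arrays lie at 0.14 to 0.22 in Dicer KO and -0.24 to -0.14 in Dicer WT, while the arrays of Klf3, Klf7 and Klf6 interleave.

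The stored numbers allow a coarse statement on levels. The binary step of a stored value grows with the number it was computed from, and it placed 5 members, Klf2, Klf3, Klf6, Klf7 and Klf13, at a log value of 8 or more before centring and the other 5, Klf4, Klf9, Klf10, Klf11 and Klf12, at 4 to 8. Of all rows 17.8% fell in the higher class, as did 94.2% of 206 ribosomal protein rows and 2.90% of 1035 olfactory receptor rows. A row of the lower class lands in the higher one by chance in 3.13% of cases, so a single gene's class is uncertain, and classes compare array signal, which also depends on the probes. The share of genes that passed was 23.2% in the higher class and 5.69% in the lower one. A gene must show the larger step on every array to enter the higher class, which ties the class in part to the genotypes. Each class holds 1 member that passed, Klf13 in the higher class and Klf11 in the lower. With 5 of 10 members in the higher class, against 17.8% of all rows, the share that passed over all genes is not matched to the members.

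Klf13 read 0.18, 0.14 and 0.22 on Dicer KO 1 to 3, against -0.14, -0.16 and -0.24 on Dicer WT 1 to 3. Every Dicer KO array was above every Dicer WT array, and the spread within a genotype was small (SD 0.04 in Dicer KO and 0.05 in Dicer WT). The difference was 0.36 ± 0.05 (95% interval 0.24 to 0.48, adjusted p = 0.00755). It stayed between 0.33 and 0.38 when any 1 array was left out, and it passed in all 6 of those fits (adjusted p 0.0182 to 0.0308). Among the genes that passed higher in Dicer KO, 73.6% had a larger difference, so the rise was small for its class of call.

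Within each array, the value of Klf13 was also set against every other member. The genotypes did not overlap for Klf13 minus Klf2, Klf3, Klf4, Klf7, Klf9, Klf11 or Klf12, which is 7 of 9 comparisons. All 9 reuse the values of Klf13, whose own arrays already stood apart by genotype, so the 7 are not separate results. Each of the 7 reached p = 0.1 in a two-sided exact permutation test (adjusted p = 0.129 over 9 comparisons). This is the smallest p that 3 arrays against 3 allow, so none can pass. The genotypes differed most for Klf13 minus Klf7, which averaged 0.27 ± 0.18 in Dicer KO and -0.31 ± 0.12 in Dicer WT (SD, n = 3 each). Each gene is centred on its own arrays, so these values are not distances between the levels of the genes. Against Klf10 the genotypes overlapped, with 0.04 ± 0.19 in Dicer KO and -0.05 ± 0.20 in Dicer WT (SD, n = 3 each, exact permutation p = 0.6). Klf13 minus Klf6 overlapped as well (exact permutation p = 0.3).

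Klf11, a TGF-beta-inducible repressor that recruits the Sin3a complex, read 0.21, 0.06 and 0.17 on Dicer KO 1 to 3, against -0.06, -0.11 and -0.17 on Dicer WT 1 to 3. Every Dicer KO array was again above every Dicer WT array, but Dicer KO 2 and Dicer WT 1 lay close to each other. The difference was 0.25 ± 0.06 (95% interval 0.11 to 0.40, adjusted p = 0.0447). Leaving out any 1 array kept its size, at 0.22 to 0.30, and ended the call in all 6 fits (adjusted p 0.0624 to 0.122). Klf10, the closest relative of Klf11 and also TGF-beta-inducible, read -0.01, 0.31 and 0.12 on Dicer KO 1 to 3, against -0.28, -0.13 and 0.01 on Dicer WT 1 to 3. Its mean difference of 0.27 ± 0.10 was larger than that of Klf11, its interval ran from 0.03 to 0.51, and it did not pass (adjusted p = 0.173). Dicer KO 1 lay below Dicer WT 3, so the genotypes overlapped. With limma's array weights, which down-weight arrays that deviate more, Klf10 passed at 0.37 (adjusted p = 0.0486) and Klf11 did not at 0.21 (adjusted p = 0.0582).

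Klf2, the quiescence and trafficking factor, read 0.04, 0.00 and 0.02 on Dicer KO 1 to 3, against -0.00, -0.08 and -0.33 on Dicer WT 1 to 3. The Dicer KO arrays lay together and all above the Dicer WT arrays, but Dicer WT 1 was level with Dicer KO 2 and most of the distance came from Dicer WT 3. The difference was 0.15 ± 0.09 (95% interval -0.05 to 0.36, adjusted p = 0.385), and 0.06 without Dicer WT 3. Klf4, which shares with Klf2 a role in restraining T cell proliferation, read 0.01, -0.15 and 0.02 on Dicer KO 1 to 3, against -0.01, -0.06 and 0.18 on Dicer WT 1 to 3. The arrays of the genotypes interleaved, and the difference was -0.07 ± 0.08 (95% interval -0.26 to 0.12, adjusted p = 0.702).

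Klf6, a broadly expressed activator induced early after stimulation, read 0.12, -0.01 and 0.01 on Dicer KO 1 to 3, against 0.18, -0.05 and -0.42 on Dicer WT 1 to 3. Dicer WT held both the highest and the lowest array of this gene. The difference was 0.14 ± 0.14 (95% interval -0.19 to 0.47, adjusted p = 0.672) and turned to -0.02 without Dicer WT 3, the array that was also lowest for Klf2. Klf6 had the widest interval of the 10 members.

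Klf3, a repressor that works through the corepressor CtBP, and Klf7, a broadly expressed activator, leaned the other way, without passing. Klf3 read 0.05, -0.08 and -0.08 on Dicer KO 1 to 3, against 0.30, 0.23 and -0.05 on Dicer WT 1 to 3. Klf7 read 0.07, -0.09 and -0.26 on Dicer KO 1 to 3, against 0.24, 0.22 and -0.07 on Dicer WT 1 to 3. In both genes Dicer WT 1 and Dicer WT 2 were the highest arrays, while Dicer WT 3 lay among the Dicer KO arrays. The difference was -0.19 ± 0.10 for Klf3 (95% interval -0.42 to 0.03, adjusted p = 0.322). For Klf7 it was -0.23 ± 0.11 (95% interval -0.49 to 0.04, adjusted p = 0.31). Without Dicer WT 3, Klf3 passed as lower in Dicer KO at -0.30 (adjusted p = 0.0448), and Klf7 came to -0.32 without passing (adjusted p = 0.107).

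Klf9, a factor induced by thyroid hormone and glucocorticoids, read 0.01, 0.02 and -0.21 on Dicer KO 1 to 3, against -0.01, -0.22 and 0.18 on Dicer WT 1 to 3. Klf12, a CtBP-recruiting repressor, read 0.02, 0.10 and -0.10 on Dicer KO 1 to 3, against -0.05, -0.02 and 0.05 on Dicer WT 1 to 3. For both genes the spread within a genotype was wider than the difference. That difference was -0.04 ± 0.11 for Klf9 (95% interval -0.30 to 0.22, adjusted p = 0.903). It was 0.01 ± 0.07 for Klf12 (95% interval -0.14 to 0.17, adjusted p = 0.947).

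**Figure D2:**
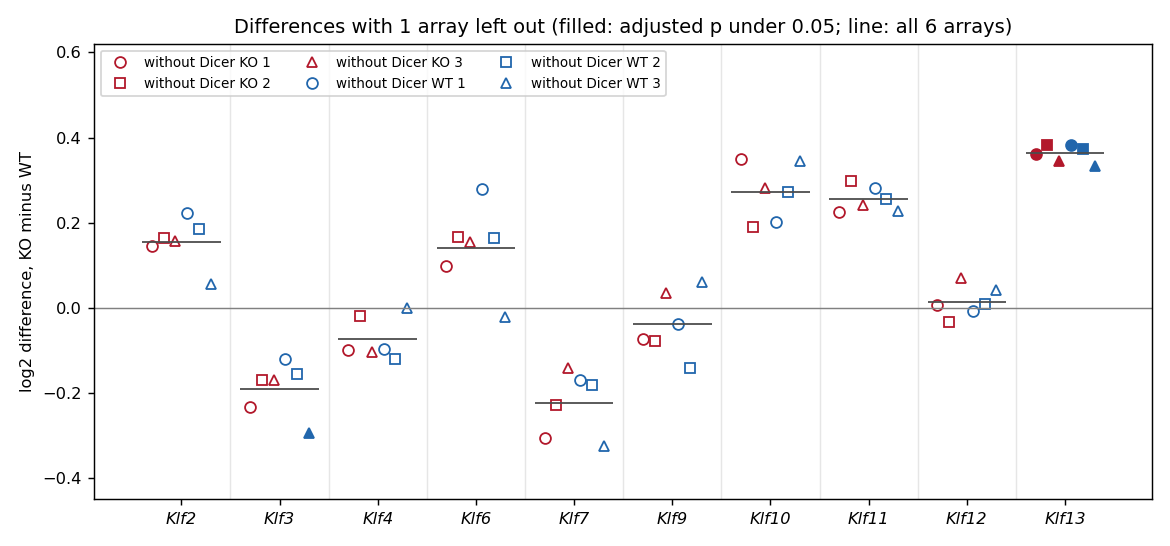
Difference of Dicer KO minus Dicer WT on the log2 scale (y axis) for each member (x axis) with 1 of the 6 arrays left out, 1 marker per fit, red for a Dicer KO and blue for a Dicer WT array; filled markers passed at an adjusted p under 0.05 and grey lines give the difference with all arrays. All 6 fits passed for Klf13 and 0 of 6 for Klf11, and Dicer WT 3 moved Klf2, Klf6, Klf3 and Klf7 downward when it was left out.

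The promoters of Klf13 and Klf11, the members that passed, and of Klf2, the member best known in resting T cells, are shown because the family binds CACCC elements and GC boxes, and 7 of the 9 members with a RefSeq promoter entry hold a GC box. Each is the 250 bases before the RefSeq start (GRCm38.p6), 5′ to 3′ on the gene's strand, with CACCC and GGGCGG matches on either strand in capitals.
Klf13, chr7:63938916-63939165, minus strand: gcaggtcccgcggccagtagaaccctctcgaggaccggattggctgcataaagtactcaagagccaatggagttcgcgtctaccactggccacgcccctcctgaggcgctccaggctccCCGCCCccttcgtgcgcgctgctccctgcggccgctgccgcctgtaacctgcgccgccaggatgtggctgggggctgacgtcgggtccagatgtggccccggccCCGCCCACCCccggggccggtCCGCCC
Klf11, chr12:24651121-24651370, plus strand: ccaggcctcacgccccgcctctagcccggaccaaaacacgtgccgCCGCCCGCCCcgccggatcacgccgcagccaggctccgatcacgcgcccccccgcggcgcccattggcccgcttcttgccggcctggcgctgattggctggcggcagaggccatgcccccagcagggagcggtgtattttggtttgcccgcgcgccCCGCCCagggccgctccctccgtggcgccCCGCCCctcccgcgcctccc
Klf2, chr8:72318812-72319061, plus strand: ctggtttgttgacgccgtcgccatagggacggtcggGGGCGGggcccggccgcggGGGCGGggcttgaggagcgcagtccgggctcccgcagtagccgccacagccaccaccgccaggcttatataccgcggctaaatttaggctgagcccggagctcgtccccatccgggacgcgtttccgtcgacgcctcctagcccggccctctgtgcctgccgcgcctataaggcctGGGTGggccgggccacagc
Klf13 held 3 GGGCGG matches, 1 of them overlapping its CACCC match, and Klf11 held 4 GGGCGG matches, an adjacent pair of which overlap, with 0 CACCC. Klf2 held 2 GGGCGG matches and 1 CACCC. Of 32851 promoters of this length, with 1 chromosome left out, 32.7% held GGGCGG and 52.0% held CACCC, and 7 and 6 of the 9 member promoters did. The promoters of Klf13, Klf11 and Klf2 had 71.6%, 76.8% and 71.2% G or C, against a mean of 53.2%, and base composition sets how often such letters occur. The members without a GGGCGG match were Klf9 and Klf12, and those without CACCC were Klf4, Klf6 and Klf11, so neither motif was found only in the members that passed. A match is a description of letters and not a binding site.

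The rest of the Sp/KLF family was compared to show where these members stand. Of 15 measured relatives, Sp6 rose (0.53 ± 0.11, adjusted p = 0.0247), 0 fell and 14 did not pass, with a median difference of 0.01. Over all genes 5.94% passed as higher and 2.79% as lower, and 1 of 15 is near the share for higher. Sp6, a factor of tooth and skin development, read 0.29, 0.28 and 0.09 on Dicer KO 1 to 3, against -0.45, -0.39 and -0.09 on Dicer WT 1 to 3. It lay in the lower level class, and leaving out Dicer KO 1, Dicer KO 2, Dicer WT 1 or Dicer WT 2 ended the call (adjusted p up to 0.104). Klf14 stood at -0.22 ± 0.06 (adjusted p = 0.0562) and passed as lower in Dicer KO without Dicer KO 3. The general GC-box activators Sp1 (0.02 ± 0.05, adjusted p = 0.927) and Sp3 (0.14 ± 0.09, adjusted p = 0.461) did not pass.

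**Figure D3:**
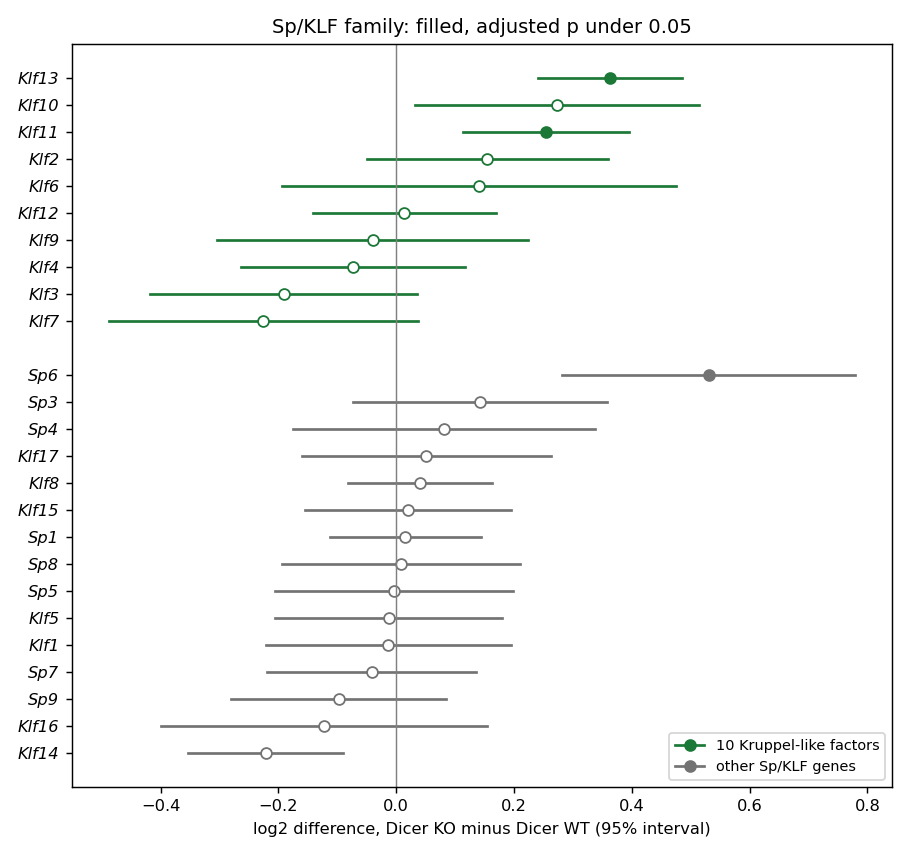
Difference of Dicer KO minus Dicer WT on the log2 scale with its 95% interval (x axis) for the 10 Kruppel-like factors in green and 15 other Sp/KLF genes in grey (y axis); filled points passed at an adjusted p under 0.05. Klf13, Klf11 and Sp6 are filled, at 0.36, 0.25 and 0.53, and most other intervals span 0.

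Genes that human and mouse work links to Klf13 were looked up after the members' values had been seen. KLF13 acts at the CCL5 promoter with the acetyltransferases PCAF, CBP and p300 and with the kinase NLK. Kat2b, which encodes PCAF, read 0.59, 0.39 and 0.51 on Dicer KO 1 to 3, against -0.39, -0.62 and -0.78 on Dicer WT 1 to 3, and it rose by 1.09 ± 0.10 (adjusted p = 0.00199). Ep300, which encodes p300, rose by 0.41 ± 0.07 (adjusted p = 0.0126), a call lost without Dicer KO 2 or Dicer WT 1. Bcl2l1, which encodes the survival protein Bcl-xL and is higher in Klf13-deficient mouse thymocytes, rose by 0.41 ± 0.08 (adjusted p = 0.0226), a call lost without Dicer KO 2, Dicer WT 1 or Dicer WT 3. Ccl5 itself read 0.25, 0.48 and 0.05 on Dicer KO 1 to 3, against -0.16, -0.07 and -0.05 on Dicer WT 1 to 3. Its arrays did not overlap, and its difference of 0.35 ± 0.11 did not pass (adjusted p = 0.0971). Nlk (0.26 ± 0.06, adjusted p = 0.0507), Crebbp, which encodes CBP (0.26 ± 0.07, adjusted p = 0.0744), Prpf4b (0.11 ± 0.21), Il4 (-0.14 ± 0.06) and Maf (0.06 ± 0.12) did not pass either. In all 3 of 9 genes rose and 0 fell (5.94% and 2.79% of all genes), with a median of 0.26. The higher level class, where 23.2% of genes passed, held 4 of the 9. The list mixes cofactors of Klf13 with Ccl5, which KLF13 activates, and Bcl2l1, which is higher without Klf13. Its count and median thus have no single direction. The count of risers was 1 without Dicer KO 2 or Dicer WT 1, and 6 without Dicer KO 3, where Ccl5, Nlk and Crebbp passed too.

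Of 18 corepressors and coactivators of the family, Kat2b and Ep300, both also counted above, rose, 0 fell and 16 did not pass. The median was 0.11, and over all genes 5.94% rose and 2.79% fell. The higher level class, where 23.2% of genes passed, held 9 of the 18. The Sin3a scaffold used by Klf10, Klf11 and Klf13 differed by 0.17 ± 0.05 (adjusted p = 0.0899) and the histone deacetylase Hdac1 by 0.28 ± 0.07 (adjusted p = 0.0567), which passed once each array was centred on its own median. The CtBP genes, whose products bind Klf3 and Klf12, read lower on average, with -0.15 ± 0.08 for Ctbp1 (adjusted p = 0.384) and -0.13 ± 0.08 for Ctbp2 (adjusted p = 0.473). The count of risers was 1 without Dicer KO 2 or without Dicer WT 1, and 3 without Dicer KO 3.

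TGF-beta pathway genes, which induce Klf10 and Klf11 or act with them, had 4 of 17 members higher and 0 lower, with a median of 0.11. Over all genes 5.94% passed as higher and 2.79% as lower. The higher level class, where 23.2% of genes passed, held 9 of the 17. The receptors Tgfbr1 (1.17 ± 0.11), Tgfbr2 (0.67 ± 0.06) and Tgfbr3 (1.07 ± 0.09) rose, each also without any 1 array. The signal transducer Smad3 rose by 0.69 ± 0.13 (adjusted p = 0.0229), a call lost without Dicer KO 1, Dicer KO 2, Dicer WT 1 or Dicer WT 2. The ligand genes did not pass, with Tgfb1 at -0.03 ± 0.10 (adjusted p = 0.927). Nor did Foxp3, a gene that Klf10 acts on in mouse CD4 T cells (0.12 ± 0.11, adjusted p = 0.605), or Itch, the ligase that modifies Klf10 (0.12 ± 0.13, adjusted p = 0.694). The receptors rose by 0.67 or more, Klf11 rose by 0.25, and Klf10 differed by 0.27 without passing. A link between the receptors and Klf10 or Klf11 was not tested. The list median was 0.04 without Dicer KO 1 and 0.07 without Dicer WT 3.

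Homing and egress genes linked to Klf2 had 4 of 12 measured members higher and 0 lower (5.94% and 2.79% of all genes), with a median of 0.46. The higher level class, where 23.2% of genes passed, held 7 of the 12. The list mixes S1pr1, which Klf2 switches on, with genes of other roles such as Cd69 and Cxcr4. Its count and median thus have no single direction. S1pr1, the egress receptor that Klf2 switches on directly, read 0.22, 0.26 and 0.05 on Dicer KO 1 to 3, against -0.05, -0.19 and -0.58 on Dicer WT 1 to 3. The genotypes did not overlap, and the difference of 0.45 ± 0.14 did not pass (adjusted p = 0.0952). Dicer WT 3 was the lowest array, as for Klf2, Klf6, Klf11 and Klf13 but not for the other members. The members that rose were the gut-homing integrin chain Itgb7 (0.81 ± 0.06), the lymph node homing receptor Ccr7 (0.64 ± 0.07), the small-intestine homing receptor Ccr9 (1.18 ± 0.20) and Cd69 (0.63 ± 0.11), whose product removes the S1pr1 protein from the surface. Ccr9 lost its call without Dicer WT 1 and Cd69 without Dicer KO 2. Cxcr4, a receptor that rises in Klf2-deficient mouse T cells in some settings, ranged from -0.31 to 1.56 in Dicer KO and from -0.83 to 0.31 in Dicer WT, and did not pass (adjusted p = 0.364).

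Of 15 upstream regulators of Klf2 and Klf4, 3 rose and 0 fell (5.94% and 2.79% of all genes), with a median of 0.10. The higher level class, where 23.2% of genes passed, held 8 of the 15. Foxo1, the factor that activates Klf2 in T cells, read -0.00, 0.14 and 0.01 on Dicer KO 1 to 3, against -0.03, 0.00 and -0.42 on Dicer WT 1 to 3. As with Klf2, Dicer WT 3 was low and the remaining arrays lay near each other, and the difference was 0.20 ± 0.12 (adjusted p = 0.404). A lowest Dicer WT 3 was not particular to Foxo1 and Klf2, since Klf6, Klf11 and Klf13 had it too. Foxo4 (0.31 ± 0.07, adjusted p = 0.0385), Notch1 (0.40 ± 0.09, adjusted p = 0.0382) and the ubiquitin ligase Smurf2 (0.87 ± 0.09, adjusted p = 0.00249) rose. Foxo4 lost its call without Dicer KO 1, Dicer KO 2, Dicer WT 1 or Dicer WT 2, and Notch1 kept its call only without Dicer WT 3, which left 1 riser in 4 of the 6 fits that left out 1 array and 2 without Dicer KO 3. The kinase Mapk7, which works upstream of Klf2 through Mef2 factors, differed by -0.04 ± 0.09 (adjusted p = 0.881).

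Of 19 genes of quiescence and cell cycle entry, 6 rose and 0 fell (5.94% and 2.79% of all genes), with a median of 0.26. The higher level class, where 23.2% of genes passed, held 10 of the 19. The list mixes brakes with drivers of the cycle, namely Myc and the cyclins Ccnd1, Ccnd2 and Ccnd3, so its count and median have no single functional direction. The 6 that rose included the pocket protein gene Rbl1 (0.68 ± 0.05) and the antiproliferative Btg1 (0.63 ± 0.09) and Btg2 (0.69 ± 0.06). The others were the inhibitor Cdkn1b (0.41 ± 0.10, adjusted p = 0.0461), Slfn2 (0.46 ± 0.11, adjusted p = 0.0487) and the driver Ccnd2 (0.93 ± 0.08). Cdkn1b kept its call only without Dicer WT 3 and Slfn2 only without Dicer KO 1 or Dicer WT 3. Tob2, another antiproliferative gene, passed as lower in Dicer KO without Dicer KO 3. Myc, which Klf2 restrains, differed by 0.26 ± 0.09 (adjusted p = 0.156).

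Klf2, Klf4, Klf6 and Klf10 respond within minutes to hours to stimulation or handling, so immediate early genes were set beside them. Of 20, 0 rose and 2 fell, against 5.94% and 2.79% of all genes, with a median of -0.04 (-0.02 without Dicer WT 1). Egr1 read -0.28, -0.27 and -0.19 on Dicer KO 1 to 3, against 0.32, 0.19 and 0.24 on Dicer WT 1 to 3, a difference of -0.49 ± 0.06 (adjusted p = 0.0033). Nr4a1 changed by -0.60 ± 0.10 (adjusted p = 0.0134), a call lost without Dicer KO 2 or Dicer WT 2. Fosb read 0.01, -0.34 and -0.12 on Dicer KO 1 to 3, against 0.76, 0.14 and -0.01 on Dicer WT 1 to 3, and did not pass (adjusted p = 0.255). Dusp1 ranged from -0.31 to 0.18 in Dicer KO and from -0.83 to 0.79 in Dicer WT. Dicer WT 3 was lowest and Dicer WT 1 highest, as for Klf6, but the list did not share this order. The median value of the 20 genes was -0.06, -0.02 and -0.01 on Dicer KO 1 to 3. On Dicer WT 1 to 3 it was 0.12, 0.02 and -0.05, so Dicer KO 1 was lowest. At an unadjusted limma p under 0.05, 0 of these 20 genes were higher and 4 lower in Dicer KO. On the same measure the homing and egress list had 6 higher and 1 lower, the upstream regulators 3 and 0, the cofactors 8 and 1, and the TGF-beta pathway 6 and 0. The quiescence and cell cycle list had 10 higher and 2 lower, the genes linked to Klf13 6 and 1, and the Sp/KLF relatives 1 and 1, where 12.1% of all genes were higher and 9.4% lower. The part of handling in the values of Klf6, Klf3 and Klf7 was not tested.

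**Figure D4:**
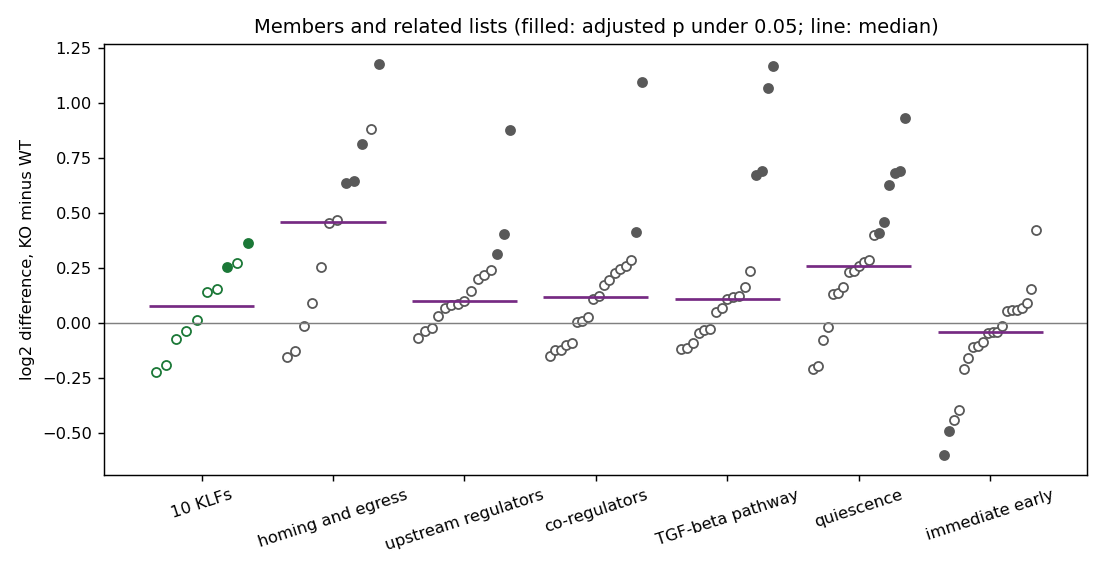
Difference of Dicer KO minus Dicer WT on the log2 scale (y axis) for each gene of the 10 Kruppel-like factors in green and of 6 related lists in grey (x axis), sorted within a list; filled points passed at an adjusted p under 0.05 and purple lines are list medians. The members' median is 0.08, that of the homing and egress genes 0.46 and that of the immediate early genes -0.04.

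Markers of cell types that could remain in such a sort were read on the same arrays. Over all genes 5.94% passed as higher and 2.79% as lower in Dicer KO, and 1 of 17 or 1 of 18 markers is near the share for higher. Of 17 measured B cell markers, Bank1 rose (0.71 ± 0.11, adjusted p = 0.00975), 0 fell, and the median difference was 0.24; Bank1 lost its call without Dicer KO 2. The count depended on single arrays, with 0 without Dicer KO 2 and 6 without Dicer WT 2 (Bank1, Cd79a, Cd79b, Ms4a1, Cd180 and Fcrla), and the median was 0.15 without Dicer WT 1 and 0.405 without Dicer WT 2. Their median per array was 0.18, -0.01 and 0.08 on Dicer KO 1 to 3, against -0.39, 0.02 and -0.20 on Dicer WT 1 to 3, so Dicer WT 1 and Dicer WT 3 were low. Values are centred, so it cannot be read whether a marker is at 0. The part of B cell RNA in the values of the Kruppel-like factors was not tested. Of 18 myeloid and dendritic markers, Lyz2 rose (0.69 ± 0.12, adjusted p = 0.0165; lost without Dicer KO 2 or Dicer WT 1) and 0 fell, with medians per array of -0.05 to 0.00 in Dicer KO and -0.03 to 0.08 in Dicer WT. Of 17 endothelial and stromal markers, Pecam1, which lymphocytes also express, rose (0.75 ± 0.07) and 0 fell, with medians of -0.02 to -0.00 in Dicer KO and -0.01 to 0.03 in Dicer WT. Of 11 CD8, NK and other lymphocyte markers, 0 passed by limma (3 higher and 1 lower at an unadjusted p under 0.05), with Gzma at 0.22 ± 0.05 (adjusted p = 0.0512) and Cd8b1 at -0.26 ± 0.07 (adjusted p = 0.0567); Gzma passed once each array was centred on its own median, and Cd8b1 passed without Dicer KO 1. Of 11 CD4 T cell genes, Cd4 and Cd2 (0.57 ± 0.06) rose and Cd5 fell by 0.44 on the log2 scale (adjusted p = 0.00704). At an unadjusted limma p under 0.05, where 12.1% of all genes were higher and 9.4% lower in Dicer KO, 9 B cell markers were higher and 0 lower. The myeloid and dendritic list had 1 higher and 1 lower, the endothelial and stromal list likewise 1 and 1, and the CD4 T cell genes 3 and 3.

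The genes most like Klf13 over the 6 arrays were Med14, Rfx5, Tmem243, Dnaja2 and Metap2, with Pearson r of 0.996 to 0.998 among 18402 genes compared. Each rose, by 0.37 to 0.63. These r values describe 6 points that fall into the genotypes, and 27 genes had an r above 0.99, so the order among them carries little.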

How the data were processed

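The authors deposited log2 values for 28815 array rows on 6 arrays, and MAS5 appears in the submitters' processing notes without a role. The sources used here do not give the log base, normalization, scan batches or genome build; base 2 is assumed. The deposited values are centred on the median of each row (largest absolute row median 5e-07). GEO's platform annotation named the rows: 21780 had 1 symbol, 1605 several and 5430 were unnamed here, and rows with several or none were left out. Symbols were updated by gene ID through RefSeq (21689 matched), and the rows of a gene were averaged. Genes were compared with limma 3.58.1 in R 4.3.3 (lmFit, eBayes) without a filter, since centring removed the levels, and checked on simulated data. The precision is limited by the number of arrays. The members, gene lists and tests were chosen with earlier results of these data known. Named genes are all members, up to 6 genes of each list that passed, by lowest p (up to 2 where none passed), Cd4, Cd44, Dicer1 and the 5 genes most like Klf13. Genes outside this rule, among them the genes linked to Klf13 and those named with values that did not pass, were chosen after values were seen or for their known role. Alternatives were array scaling, quantile normalization, a robust prior, array weights, row-level fits, a spread filter, a minimum difference, a replicate block and arrays left out. One further marker of the sort is not reported here.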

Additional observations from a re-analysis of the deposited data

How the results depend on the processing

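Klf13 was called under every alternative run except with a minimum log2 difference of 0.5 and with Dicer WT 1 and Dicer WT 3 both left out. Those arrays were picked for low B cell markers, and 1 Dicer WT array then remains, assumed to vary like the others. The count of 2 Kruppel-like factors called became 1 when the 30% of genes with the lowest spread were left out and 1 with the replicate block (Klf11 adjusted p 0.0689 and 0.0515). It was 0 with the minimum difference and 1 to 2 with 1 array left out. The 2 came without Dicer WT 3 and were Klf13 higher and Klf3 lower in Dicer KO, not Klf11. With array weights the count stayed at 2, but the genes were Klf10 and Klf13. With those Dicer WT arrays left out, the difference of Klf13 was 0.34. The 1741 genes called became 2685 with all rows of the table entered as features, 657 with the minimum difference, 213 without both Dicer WT arrays and 729 to 1597 with 1 array left out, the lowest counts being 729 without Dicer KO 2, 849 without Dicer WT 1 and 1050 without Dicer WT 2. Several members changed sign without passing. Klf9 came to 0.031 with array weights and 0.16 without both Dicer WT arrays, and ranged from -0.14 to 0.060 with 1 array left out. Klf4 came to 0.022 without both Dicer WT arrays. Klf6 ranged from -0.023 to 0.28 and Klf12 from -0.033 to 0.069 with 1 array left out. Deviations of same-numbered samples from their genotype means correlated at 0.274, -0.0763 and 0.3 over genes. Those of different-numbered samples correlated at -0.366 to 0.227. These values do not settle whether the numbers pair the samples, and the main fit did not pair them. The replicate block gave 2063 calls. Klf7 and Klf10 had limma adjusted p of 0.0642 and 0.0839 there, without passing. The cause of these shifts was not tested.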
